A study of Mus musculus with 12 samples.

Results

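The 10 genes described here are core members and a direct output of the circadian clock: Arntl and Clock, Per1, Per2 and Per3, Cry1 and Cry2, Nr1d1 and Nr1d2, and Dbp. They were chosen by symbol and not by a cutoff on their values, though with earlier results of these data known. Each was listed 1 time among the 22923 distinct gene symbols of the tables. All 10 passed the filter on low values (FPKM of at least 1 in at least 3 of the 12 mice), as did 11945 genes in all, and each had an FPKM above 2 in every mouse. FPKM is the number of sequenced fragments scaled by transcript length and library size, so that levels of different genes can be compared per length.

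RNA was sequenced from proximal hind leg muscle of 12 male mice of the FVB/N background, 22 weeks old, with 3 mice in each of 4 groups. WT mice (titled Flox by the submitters) and KO mice lacking both αB-crystallin (Cryab) and HspB2 (Hspb2) in every tissue were each kept on normal chow or on high fat diet. WT and KO animals came from heterozygous breeding, were group housed under a 12-hour light-dark cycle and ate ad libitum. Neither the labels nor the methods give the time of day, the order or the feeding state at which the muscles were taken, so that a difference in these between groups cannot be told apart from one of diet or genotype.

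In the mammalian clock, the proteins of Arntl (BMAL1) and Clock pair on E-box sequences and activate the Per, Cry, Nr1d1, Nr1d2 and Dbp genes. The PER and CRY proteins then repress that pair, and the REV-ERB proteins of Nr1d1 and Nr1d2 repress Arntl, so that over a day the Arntl transcript runs opposite to Nr1d1 and Dbp. In skeletal muscle the clock is known for setting daily rhythms of fuel use.

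The promoters of 9 of the 10 genes were found in the RefSeq table of gene starts (GRCm38.p6, the assembly also called mm10), as 13 windows, and Per2 had no entry. In the 250 bases before each start, 4 elements were searched on both strands: the E-box CACGTG, its variant CACGTT, the D-box (TTATGTAA or TTATGCAA, bound by DBP and its relatives TEF and HLF) and the ROR element (bound by ROR and REV-ERB proteins). At least 1 element was present in 5 of the genes. Of 32851 promoter windows in the table, 6.02% held the E-box, 3.85% the variant, 1.501% the D-box and 0.350% the ROR element, which was in no window of the 10 genes. These shares are for single elements per window, so the count of 5 genes with any element cannot be set against them. The 4 windows printed here belong to a period gene with an E-box and a D-box (Per1, chr11:69098699-69098938, plus strand), a cryptochrome with an E-box and the variant (Cry1, chr10:85185065-85185304, minus strand), a period gene with a pair of D-boxes (Per3, chr4:151044676-151044915, minus strand) and the REV-ERB gene whose level followed Dbp most closely (Nr1d1, chr11:98775388-98775627, minus strand). Each is printed 5′ to 3′ without its last 10 bases, and capitals mark the elements, where AACGTG is the variant read on the other strand.
Per1: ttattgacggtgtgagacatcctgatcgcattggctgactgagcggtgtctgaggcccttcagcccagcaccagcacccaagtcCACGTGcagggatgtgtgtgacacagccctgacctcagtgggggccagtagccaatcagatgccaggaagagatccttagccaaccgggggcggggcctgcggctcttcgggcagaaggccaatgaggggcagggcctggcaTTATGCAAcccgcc
Cry1: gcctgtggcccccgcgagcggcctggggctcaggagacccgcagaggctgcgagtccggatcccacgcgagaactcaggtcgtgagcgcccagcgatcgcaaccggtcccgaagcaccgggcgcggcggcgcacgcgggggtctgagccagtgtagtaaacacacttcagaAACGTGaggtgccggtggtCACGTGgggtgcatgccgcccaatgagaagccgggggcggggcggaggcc
Per3: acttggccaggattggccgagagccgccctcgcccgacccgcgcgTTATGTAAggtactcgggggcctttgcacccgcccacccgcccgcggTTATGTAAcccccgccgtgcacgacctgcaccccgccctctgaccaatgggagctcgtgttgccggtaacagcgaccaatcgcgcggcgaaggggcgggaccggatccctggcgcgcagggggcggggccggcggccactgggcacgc
Nr1d1: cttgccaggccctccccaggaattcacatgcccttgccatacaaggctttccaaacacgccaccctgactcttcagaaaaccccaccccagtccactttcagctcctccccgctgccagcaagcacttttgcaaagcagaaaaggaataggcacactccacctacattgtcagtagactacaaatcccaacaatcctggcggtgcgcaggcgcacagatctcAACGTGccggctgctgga
In Per1 the E-box lay 166 to 161 bases and the D-box 24 to 17 bases before the start. In Cry1 the E-box lay 60 to 55 bases and the variant 79 to 74 bases before it. The D-boxes of Per3 lay 205 to 198 and 158 to 151 bases before the start, and the variant of Nr1d1 28 to 23 bases before it. The fifth gene, Cry2, held the variant 166 to 161 bases before its start. A match of letters is a description and not a measured binding site. The windows of Dbp, Clock, Arntl and Nr1d2 held none of these letters, nor did the second window of Per1. In GENCODE, 159 of the 250 bases of the Dbp window lie in exons of Dbp itself. The same holds for 138 bases of 1 Clock window, and for 46 or fewer in any other window.

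Each library stood with the genotype of its title. Cryab ranged from 412 to 837 FPKM in the 6 WT mice and from 0.845 to 1.75 FPKM in the 6 KO mice, and Hspb2 from 81.5 to 103 and from 0.353 to 1.92 FPKM. The genotype label of 6 of the 12 samples conflicts with the title, and the titles were followed. Skeletal muscle markers were high in all mice (creatine kinase Ckm, 13276 to 25896 FPKM), except that Myh4 was listed at 0 in all 12 and Acta1 in 2 of them. All 5 T and B cell markers passed the filter, with a summed level of 42.6, 48.5 and 48.5 FPKM in WT chow 2, KO chow 1 and KO chow 3 and of 0.223 to 3.41 FPKM in the others. The same 3 libraries had the highest sums of the brown adipocyte markers Ucp1 and Cidea, 46.0 to 57.3 FPKM, against 0.829 to 13.2 FPKM elsewhere. The summed level of 5 white adipocyte markers was 112 to 729 FPKM in WT chow, 5.90 to 385 in WT high fat, 815 to 1729 in KO chow and 348 to 506 in KO high fat. Results are therefore also given without the 3 libraries, which leaves KO chow with 1 mouse, assumed to vary like the other groups. In whole muscle, fewer cells of a type and less RNA per cell cannot be told apart.

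Ordered by mean level, the 10 genes ran from Dbp down to Clock, with ranges that overlapped along the order. Over the 12 mice, Dbp was highest at 48.9 ± 13.7 FPKM (SD, n = 12), followed by Nr1d2 at 36.6 ± 4.93 and Nr1d1 at 36.5 ± 11.6 FPKM, and these neighbours did not differ beyond their spread. Cry2 at 20.3 ± 2.75 and Per1 at 18.3 ± 4.74 FPKM came next and overlapped each other, and the highest Cry2 (25.0) and Per1 (25.3) lay above the lowest Nr1d1 (23.8). Cry1 at 8.87 ± 1.21, Per3 at 8.62 ± 0.909 and Per2 at 7.32 ± 0.920 FPKM followed and again overlapped, and the highest Cry1 (11.9) lay above the lowest Per1 (9.11). The activators were lowest, with Arntl at 3.39 ± 0.879 and Clock at 2.86 ± 0.445 FPKM, and Arntl ranged across the level of Clock.

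How far mice of 1 group lay apart differed between the genes. The pooled SD within groups on the log2(FPKM + 1) scale was 0.34 for Nr1d1, 0.28 for Dbp, 0.25 for Arntl and 0.24 for Per1, against a median of 0.15 over all tested genes. These 4 genes also had the widest range over the 12 mice, the highest level being 2.69, 2.57, 2.19 and 2.78 times the lowest. The other 6 genes had highest-to-lowest ratios of 1.41 to 1.61, and Cry2 had the smallest spread within groups, 0.12.

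**Figure D1:**
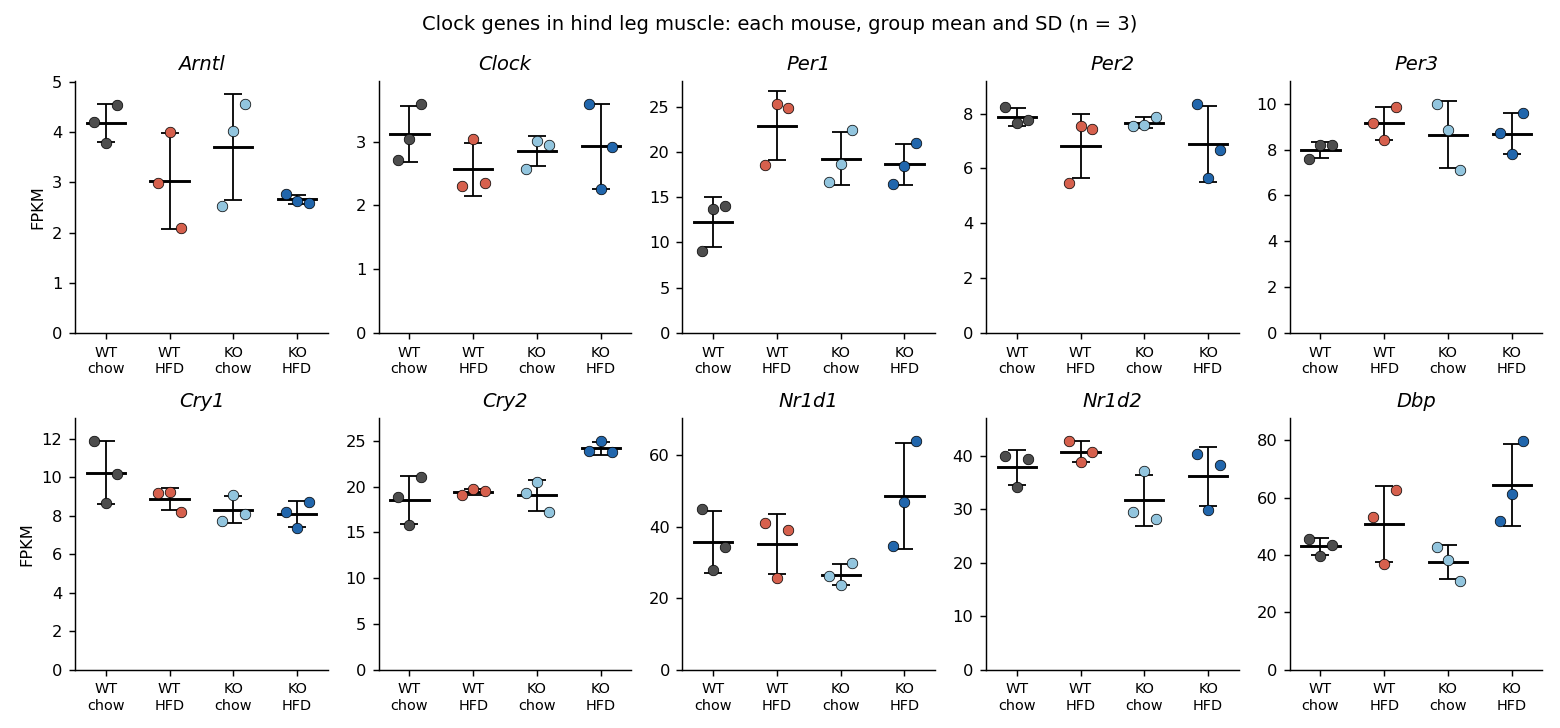
FPKM of each clock gene (y axis, linear from 0) in each mouse (points) of the 4 groups (x axis, HFD is high fat diet), with the group mean (thick bar) and SD (whiskers), n = 3. Per1 was lowest in the 3 WT chow mice, and the 3 KO high fat mice had the 3 highest levels of Cry2.

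Among the activators, Arntl (chr7:113207465-113314126, plus strand) encodes BMAL1, the partner of CLOCK without which the clock stops. Its FPKM was 4.20, 3.79 and 4.55 in WT chow, 2.99, 4.01 and 2.09 in WT high fat, 2.54, 4.02 and 4.56 in KO chow, and 2.77, 2.63 and 2.60 in KO high fat. The 3 KO high fat mice lay close together and low, while in both WT high fat and KO chow the mice spanned most of the range of the study, and the groups overlapped in all 4 pairwise comparisons. The difference of high fat minus chow, on the log2 scale and averaged over the genotypes, was -0.36 (SE 0.13, 95% interval -0.65 to -0.07, limma adjusted p = 0.291), with -0.39 in WT and -0.34 in KO. Clock (chr5:76209868-76304792, minus strand), the partner of BMAL1, ranged from 2.26 to 3.59 FPKM, and both ends of that range came from KO high fat mice. Its differences were -0.21 to 0.13 in the 4 pairwise comparisons, each with an interval that included 0.

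Per1 (chr11:69095217-69109960, plus strand) encodes a repressor of the clock, and is also known as a gene that glucocorticoids and cAMP signals induce directly. It had 9.11, 13.7 and 14.1 FPKM in WT chow, 18.6, 25.3 and 24.9 in WT high fat, 16.6, 18.7 and 22.5 in KO chow, and 16.5, 18.4 and 21.0 in KO high fat. The 3 WT chow mice were the 3 lowest of the study, below every mouse of the other groups, and those other groups overlapped. High fat diet in WT gave the largest difference of any clock gene in the 4 pairwise comparisons, 0.86 (SE 0.18, 95% interval 0.47 to 1.25), a ratio of mean FPKM of 1.87 (limma adjusted p = 0.111). Between genotypes on chow, KO minus WT was 0.62 (SE 0.18, limma adjusted p = 0.269). In KO the diet difference was -0.04 (95% interval -0.43 to 0.35), and the diet difference in KO minus that in WT was -0.90 (SE 0.25, limma adjusted p = 0.593). Without the 3 libraries rich in T and B cell markers, the diet difference in WT was 0.94 and the genotype difference on chow 0.67, both with an unadjusted p under 0.05. Since the comparisons on chow and in WT share the WT chow mice, they are not independent.

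Per2 (chr1:91415982-91459324, minus strand) and Per3 (chr4:151003652-151044665, minus strand), the other period genes, were steadier. Per2 had 7.65 to 8.25 FPKM in WT chow and 5.49 to 7.55 in WT high fat, 7.53 to 7.89 in KO chow and 5.64 to 8.35 in KO high fat. Per3 had 7.60 to 8.22 FPKM in WT chow, 8.43 to 9.84 in WT high fat, 7.10 to 9.99 in KO chow and 7.80 to 9.59 in KO high fat. In WT the diet groups of both genes did not overlap, Per2 lying lower and Per3 higher on high fat diet, with differences of -0.19 (95% interval -0.48 to 0.09) and 0.17 (-0.08 to 0.42). In KO they overlapped, at -0.15 and 0.02. No comparison of either gene had an unadjusted p under 0.05.

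The cryptochromes Cry1 (chr10:85131700-85185064, minus strand) and Cry2 (chr2:92403646-92434043, minus strand) encode the stronger repressors of the activating pair. Cry1 had its highest level, 11.9 FPKM, in a WT chow mouse, and its groups ranged from 8.66 to 11.9 FPKM in WT chow, 8.19 to 9.22 in WT high fat, 7.73 to 9.08 in KO chow and 7.38 to 8.70 in KO high fat. KO minus WT was -0.26 on chow (SE 0.11, limma adjusted p = 0.284) and -0.12 on high fat diet (limma adjusted p = 0.648), and the groups overlapped in both. The difference on chow was -0.25 without the 3 libraries rich in T and B cell markers. Cry2 had 18.9, 15.8 and 21.0 FPKM in WT chow, 19.0, 19.7 and 19.5 in WT high fat, 19.3, 20.5 and 17.2 in KO chow, and 23.9, 25.0 and 23.7 in KO high fat. All 3 KO high fat mice lay above the 9 others, and the other 3 groups overlapped. High fat minus chow was 0.33 in KO (SE 0.10, 95% interval 0.11 to 0.56, limma adjusted p = 0.390) against 0.07 in WT (-0.15 to 0.29), and the difference between these was 0.26 (95% interval -0.05 to 0.58). On high fat diet, KO minus WT was 0.30 (SE 0.10, limma adjusted p = 0.170). Without the 3 libraries rich in T and B cell markers, the diet difference in KO was 0.23, no longer with an unadjusted p under 0.05, and the genotype difference on high fat diet stayed at 0.30, since none of those libraries is in it. The summed macrophage markers were 40.6 to 77.3 FPKM in KO high fat and 8.27 to 23.7 in WT high fat, and their part in the genotype difference was not tested. Of the exonic bases of Cry2, 4.67% lie opposite exons of D930015M05Rik.

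Nr1d1 (chr11:98767932-98775333, minus strand) encodes REV-ERBα, the repressor of Arntl that also binds heme. It had 45.0, 28.0 and 34.3 FPKM in WT chow, 41.1, 25.6 and 39.0 in WT high fat, 26.3, 23.8 and 29.7 in KO chow, and 34.5, 47.0 and 64.0 in KO high fat. KO chow mice were low and KO high fat mice high without overlap, whereas the WT diet groups covered nearly the same range. The diet difference in KO was 0.81 (SE 0.24, 95% interval 0.27 to 1.34, limma adjusted p = 0.390), a ratio of mean FPKM of 1.82, and in WT -0.02 (95% interval -0.56 to 0.51). The diet difference in KO minus that in WT was 0.83 (SE 0.34, limma adjusted p = 0.761). Without the 3 libraries rich in T and B cell markers, the difference in KO was 0.95. Nr1d2 (chr14:18204054-18239127, minus strand), which encodes the related REV-ERBβ, ranged only from 28.3 to 42.9 FPKM. It had 34.1 to 39.96 FPKM in WT chow, 38.8 to 42.9 in WT high fat, 28.3 to 37.2 in KO chow and 29.8 to 40.4 in KO high fat. KO minus WT averaged over diets was -0.22 (SE 0.09, limma adjusted p = 0.166), and -0.14 without the 3 libraries. The highest KO chow level, 37.2 FPKM, was in KO chow 2, which is not among those libraries.

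Dbp (chr7:45705088-45710203, plus strand) encodes a PAR bZip activator that carries the rhythm to output genes through D-boxes. It had 45.7, 39.8 and 43.6 FPKM in WT chow, 53.2, 36.7 and 62.6 in WT high fat, 42.9, 38.3 and 31.0 in KO chow, and 51.7, 61.4 and 79.9 in KO high fat. The KO high fat mice all lay above the KO chow and WT chow mice, and the WT high fat mice were split, with 1 mouse below and 2 above all WT chow mice. The diet difference was 0.76 in KO (SE 0.20, 95% interval 0.31 to 1.20, limma adjusted p = 0.360), a ratio of mean FPKM of 1.72, and 0.20 in WT (95% interval -0.24 to 0.65). The difference between these was 0.55 (95% interval -0.08 to 1.18), and the diet difference averaged over genotypes was 0.48 (SE 0.14, limma adjusted p = 0.220). Without the 3 libraries rich in T and B cell markers, the diet difference was 0.71 in KO and 0.43 averaged over genotypes. Dbp, Nr1d1 and Cry2 were each lower in all KO chow mice than in all KO high fat mice. The sum of the white adipocyte markers went the other way and was higher in all KO chow mice than in all KO high fat mice. Of these markers only Cfd was separated this way, at 577 to 1329 FPKM against 59.9 to 112. Lep was lower in KO chow (11.8 to 42.6 FPKM against 63.3 to 93.4), and Adipoq, Plin1 and Cidec overlapped. The summed Schwann cell markers were 178 to 296 FPKM in KO chow and 81.9 to 141 in KO high fat. The part of either cell type in the differences was not tested.

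**Figure D2:**
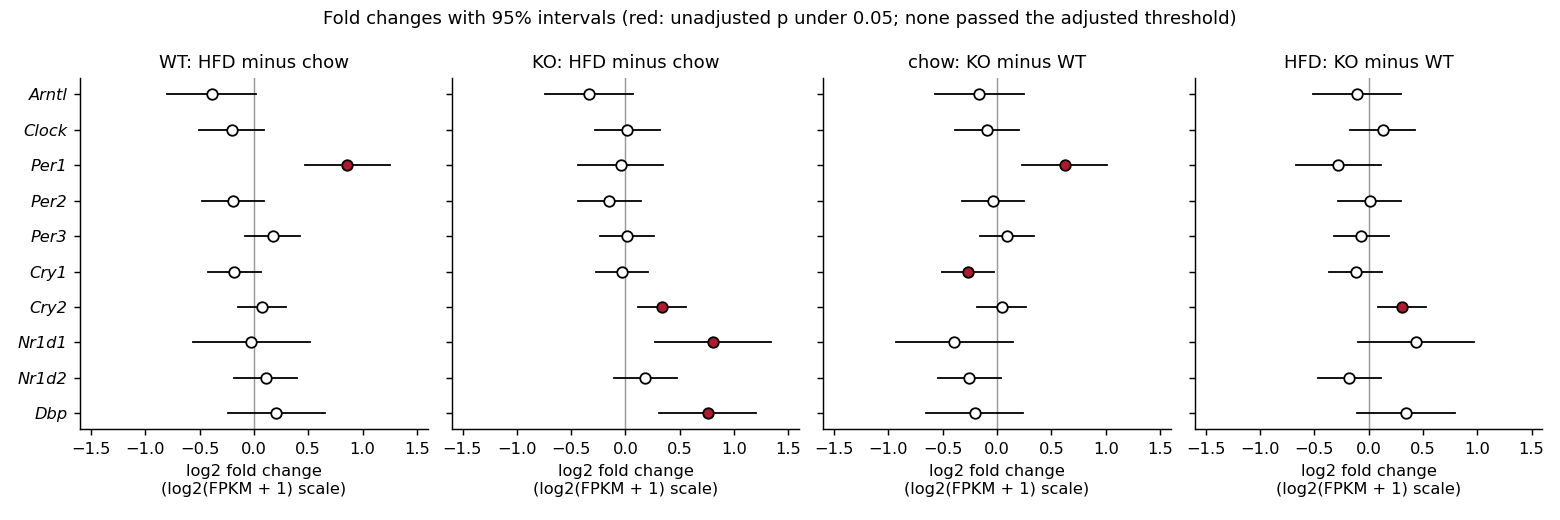
Log2 fold change on the log2(FPKM + 1) scale (x axis, points) with 95% intervals (lines) of the 10 clock genes (y axis) in 4 comparisons of 3 against 3 mice (panels), with unadjusted p under 0.05 in red. Per1 stood out in both comparisons that hold WT chow mice, and Dbp, Nr1d1 and Cry2 in the diet comparison of KO.

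None of the 10 genes was called by limma in any of 7 comparisons at an adjusted p under 0.05, the lowest adjusted p being 0.111. The share of all 11945 tested genes called this way was 0.10% for diet in WT, 0.00% for diet in KO, 0.0586% for genotype on chow, 0.109% for genotype on high fat diet, 0.00% for the diet by genotype interaction, 0.0586% for diet averaged over genotypes and 0.862% for genotype averaged over diets, so that calls were few for genes of any kind. At an unadjusted p under 0.05, 1 clock gene stood out for diet in WT (Per1) beside 8.12% of all tested genes, and 3 for diet in KO (Dbp, Cry2 and Nr1d1, all higher on high fat diet) beside 11.3%. For genotype there were 2 on chow (Per1 higher and Cry1 lower in KO) beside 16.7%, and 1 on high fat diet (Cry2, higher in KO) beside 16.2%. The interaction had 2 (Per1 and Nr1d1) beside 6.25%. Averaged over genotypes, diet had 5 of 10 (Dbp, Per1, Cry2 and Nr1d1 higher, Arntl lower) beside 13.9%, and averaged over diets, genotype had 3 of 10 (Cry2 higher, Cry1 and Nr1d2 lower) beside 26.5%. Without the 3 libraries rich in T and B cell markers, the counts were 3 for diet in WT beside 7.49% of all tested genes, 2 for diet in KO beside 3.38%, 1 for genotype on chow beside 2.65%, 1 on high fat diet beside 17.2%, 2 for the interaction beside 2.66%, 3 for diet averaged over genotypes beside 7.17% and 1 for genotype averaged over diets beside 11.6%. Again 0 of the 10 genes were called.

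Counted by whether the mice overlapped, 3 of 10 genes did not overlap between diets in WT (Per1, Per2 and Per3) beside 13.1% of all tested genes, and 3 did not in KO (Cry2, Dbp and Nr1d1) beside 16.9%. Between genotypes, 1 gene did not overlap on chow (Per1, 18.4% of all tested genes) and 1 on high fat diet (Cry2, 23.7%). No gene was in both sets, but with 3 of 10 genes in each this shows no response particular to a genotype. In WT, Per2 was lower and Per1 and Per3 were higher on high fat diet. Per2 and Per3 had a limma unadjusted p of 0.166 and 0.159 there. Only for Per1 and Nr1d1 did the test of the difference between the genotypes reach an unadjusted p under 0.05, and neither passed adjustment. The median size of the diet difference, without sign, was 0.19 in WT and 0.17 in KO over the 10 genes, and 0.10 and 0.13 over all tested genes.

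Since Arntl and Dbp run opposite to each other over a day, their ratio places each mouse along that opposition, as a description. Dbp over Arntl was 10.9, 10.5 and 9.59 in WT chow, 17.8, 9.16 and 30.0 in WT high fat, 16.9, 9.54 and 6.80 in KO chow, and 18.7, 23.4 and 30.7 in KO high fat. The WT chow mice were nearly alike, and every KO high fat mouse lay above every chow mouse of either genotype. Within WT high fat the ratio spanned almost the whole range of the 12 mice, with WT high fat 2 below all WT chow mice and WT high fat 3 next to the highest KO high fat mouse. WT high fat 2 was also the only library with more than a trace of hair and skin keratins, 28.4 FPKM summed over 5 markers against 0.0480 at most elsewhere, and the part of this in its ratio was not tested. KO chow spanned 6.80 to 16.9. On the log2 scale the SD within a group was 0.09 in WT chow, 0.86 in WT high fat, 0.66 in KO chow and 0.36 in KO high fat (n = 3 each).

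Of 3 other ratios, each of which shares a member with the first, 2 also put every KO high fat mouse above every chow mouse. Nr1d1 over Arntl was 7.37 to 10.7 in WT chow, 6.38 to 18.7 in WT high fat, 5.92 to 10.3 in KO chow and 12.5 to 24.7 in KO high fat. Per1 over Arntl was 2.17 to 3.60 in WT chow and 4.65 to 11.9 in the other 9 mice, among which the KO groups overlapped, KO chow 1 (6.56) lying above KO high fat 1 (5.95). Dbp over Cry1, which holds no Arntl, was 3.84 to 4.59 in WT chow, 3.98 to 7.64 in WT high fat, 3.83 to 5.55 in KO chow and 6.32 to 9.18 in KO high fat, so that the KO high fat mice again lay above all chow mice. The 3 WT high fat mice, alike in genotype and diet, ran from 9.16 to 30.0 in Dbp over Arntl, and the group means from 10.3 to 24.3. Means of 3 mice vary less than single mice, so these ranges do not weigh groups against mice.

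**Figure D3:**
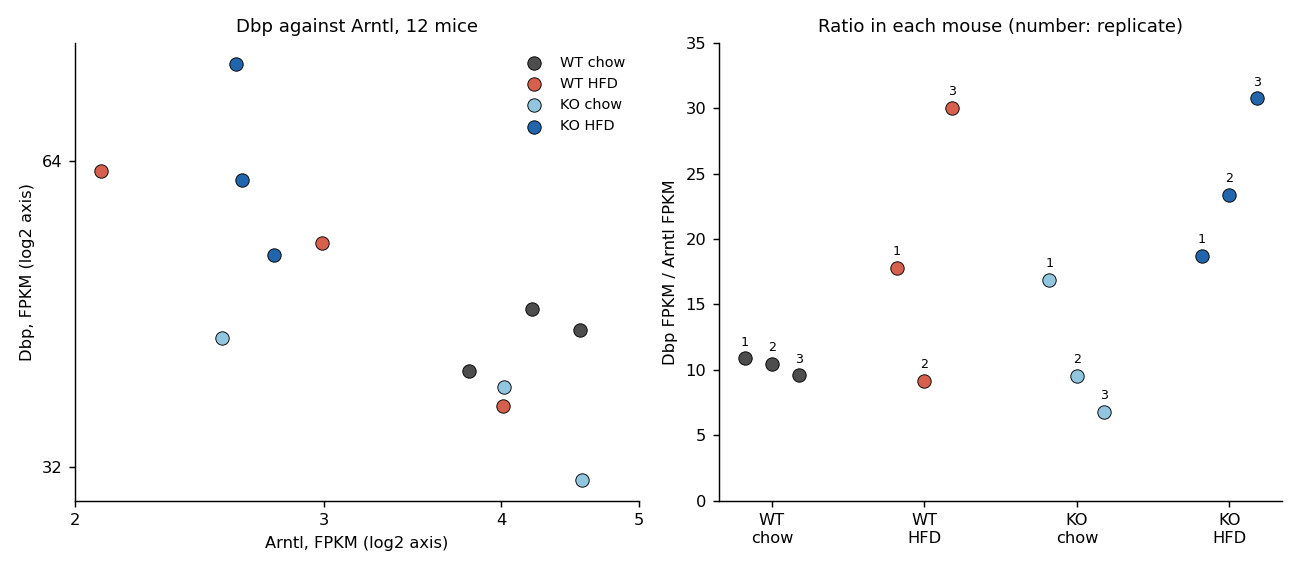
Left, Dbp against Arntl in FPKM (both axes on a log2 scale) for the 12 mice, coloured by group. Right, the ratio of Dbp to Arntl (y axis, linear from 0) in each mouse of the 4 groups, numbered by replicate, which spans 9.16 to 30.0 in WT high fat and 18.7 to 30.7 in KO high fat.

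Across the 12 mice, the level of every tested gene was correlated with Arntl on the log2(FPKM + 1) scale, with 100000 permutations and adjustment over 11944 genes. Dbp had r = -0.77 (permutation p = 0.00345, adjusted p = 0.921) and rho = -0.68 (permutation p = 0.0180, adjusted p = 0.899). Per3 had r = -0.72 (permutation p = 0.00941, adjusted p = 0.921) and rho = -0.77 (permutation p = 0.00475, adjusted p = 0.899). Cry1 had r = 0.59 (permutation p = 0.0371, adjusted p = 0.921) and rho = 0.50 (permutation p = 0.0985, adjusted p = 0.911). Per2 had r = 0.41 (permutation p = 0.194, adjusted p = 0.949) and rho = 0.60 (permutation p = 0.0432, adjusted p = 0.899). Over the other 6 genes, Per2 included, r ranged from -0.44 (Cry2) to 0.53 (Clock), with a permutation p for r of 0.0766 or more. None of these relations passed adjustment, and 5.30% of all genes had an unadjusted permutation p for r under 0.05, with 0 genes of any kind passing.

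The opposition of Dbp and Arntl was present within groups as well as over them. Of deviations from the group means, r was -0.73 for Dbp, -0.73 for Per3 and 0.44 for Cry1, given as a description. Without KO chow 3 and WT high fat 3, the mice farthest from the median of Arntl, r was -0.68 for Dbp, -0.57 for Per3 and 0.76 for Cry1. Without the 3 libraries rich in T and B cell markers, r was -0.82, -0.61 and 0.75. Nr1d1, which in a running clock is also opposite to Arntl, had r = -0.42 (rho = -0.31), and Per1 had r = -0.34 over all mice but 0.25 within groups, so that its sign turned. Among the pairs without Arntl, Nr1d1 and Dbp had the highest r, 0.85 over all mice and 0.72 within groups, and over all mice Clock and Per2 came next (0.68). Within groups Cry1 and Nr1d2 (0.69) and Per3 and Dbp (0.69) came ahead of Clock and Per2 (0.66).

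**Figure D4:**
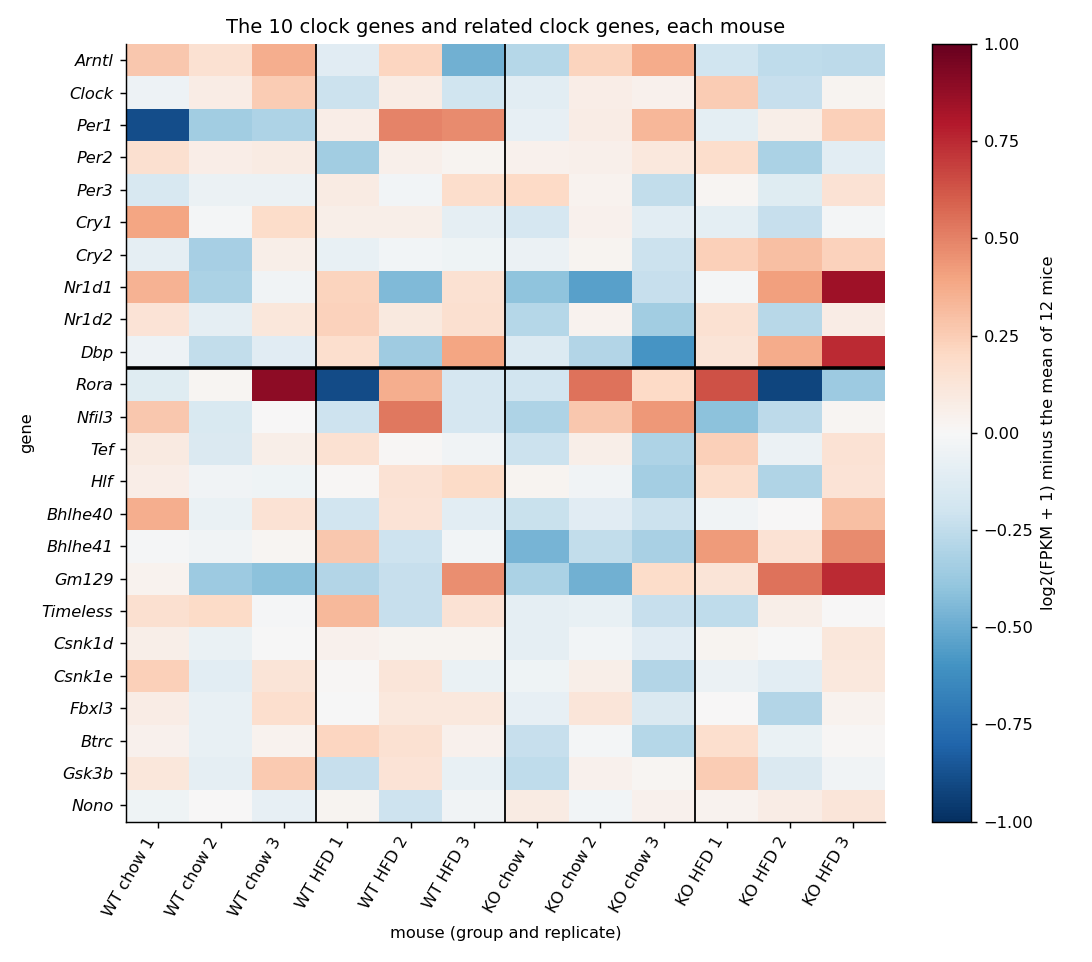
Level on the log2(FPKM + 1) scale minus the mean of the 12 mice (colour, red higher and blue lower) of the 10 clock genes (above the thick line) and the 14 tested genes of the wider clock list (below it), in each mouse (columns, groups separated by lines). Dbp, Nr1d1 and Gm129 were highest in KO high fat 3, where Arntl was low.

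The genes most like Arntl in level across the 12 mice, by Pearson r, were Secisbp2 (0.90), Msmp (0.89), 1700001O22Rik (0.85), Syne1 (0.85) and Zbtb40 (0.84). Those most opposite were Rgs18 (-0.86), Hmgn3 (-0.85), Hrct1 (-0.83), Clec12a (-0.82) and Mum1 (-0.81), and no member of the clock was among them. Dbp was followed most closely by Sphk2 (0.96), BC016495 (0.88), Cd59a (0.87), Prps1 (0.86) and Vamp3 (0.86), with Nr1d1 in place 9 of all genes. It was opposed most by Thbd (-0.90), Solh (-0.88), Casp8ap2 (-0.87), Zfp800 (-0.86) and Inca1 (-0.84). Sphk2 (chr7:45709467-45718002, minus strand) overlaps Dbp on the opposite strand, and 539 bases, 18.01% of the exonic bases of Dbp, lie in exons of both. Nr1d1 shares 8.55% of its exonic bases with Thra on the opposite strand. The library kit named in the labels does not mark strand, so that reads in such stretches cannot be told apart and the split between these genes is uncertain. Sphk2 had 15.1, 15.0 and 12.8 FPKM in KO chow and 16.3, 18.5 and 19.8 in KO high fat, without overlap, with a diet difference in KO of 0.33 (limma adjusted p = 0.431). Thra itself ranged from 18.3 to 29.9 FPKM, with 26.0, 20.9 and 27.7 FPKM in the KO high fat mice. The part of the shared stretches in the levels of Dbp and Nr1d1 was not tested.

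Of the wider clock list, 14 of 18 listed genes were tested, and none was called in any comparison. Bhlhe41 (DEC2, a repressor of the activating pair) had 12.04, 14.2 and 13.4 FPKM in KO chow and 23.2, 18.9 and 23.9 in KO high fat, without overlap. Its diet difference was 0.69 in KO (limma adjusted p = 0.156) and 0.02 in WT, and the difference between these was 0.67 (limma adjusted p = 0.593). Gm129 (Ciart, another repressor of that pair) had a diet difference of 0.68 in KO (limma adjusted p = 0.431), and Btrc, a subunit of the ligase that degrades PER, one of 0.22 (limma adjusted p = 0.440). Bhlhe40, the relative of Bhlhe41, was at -0.33 in KO on chow (limma adjusted p = 0.281) with an interaction of 0.47 (limma adjusted p = 0.735). The median diet difference in KO was 0.10 over the 14 genes and 0.03 over all tested genes. Tef, the PAR bZip relative of Dbp, ranged from 79.8 to 117 FPKM and Hlf from 4.25 to 6.59 FPKM, and neither had an unadjusted p under 0.05. The partner paralogs Npas2 and Arntl2 were below the filter, at no more than 0.195 and 0.321 FPKM.

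Of 17 genes known as clock outputs, 16 were tested and 1 was called, for genotype averaged over diets, beside 0.862% of all tested genes. Cdkn1a, the cell cycle inhibitor p21, had 7.02 to 13.3 FPKM in the 6 WT mice and 17.4 to 50.7 in the 6 KO mice, and rose in KO by 1.48 averaged over diets (SE 0.24, limma adjusted p = 0.0245). The summed macrophage markers, at 32.3 to 47.0 FPKM in KO chow and 21.4 to 32.0 in WT chow, were also higher in all KO mice on either diet. On chow, of these markers only Csf1r was separated this way, and Adgre1 and Cd68 overlapped. The part of macrophages in the rise of Cdkn1a was not tested. For diet in KO, 6 of the 16 had an unadjusted p under 0.05 and were higher (Pdp1 0.57, Pfkfb3 0.73, Tcap 0.43, Slc41a3 0.43, Usp2 0.29 and Coq10b 0.28) and 1 was lower (Por -0.56). For diet in WT, 3 did so, all higher (Ucp3 0.54, Pdp1 0.34 and Coq10b 0.31). At the same unadjusted threshold, between genotypes on chow, Cdkn1a (1.41), Por (0.75) and Tspan4 (0.47) were higher and Myod1 (-0.39) and Pdp1 (-0.30) lower in KO. On high fat diet Cdkn1a (1.55) and Pfkfb3 (1.01) were higher and Coq10b (-0.23) lower. Over all tested genes, 11.3% passed that threshold for diet in KO and 8.12% for diet in WT. For genotype the share was 16.7% on chow and 16.2% on high fat diet. The median over the 16 genes was 0.14 for diet in WT and 0.11 in KO, beside -0.01 and 0.03 over all tested genes.

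Glucocorticoids induce Per1, and of 12 listed genes that they also induce, all were tested and none called. No glucocorticoid level is given, and any relation of these genes to Per1 was not tested. For diet in WT, 3 had an unadjusted p under 0.05, beside 8.12% of all tested genes. All 3 were higher (Pdk4 1.44, Klf15 0.41 and Sgk1 0.39), and the median over the list was 0.25. Of the others, Fkbp5 was at -0.38 (limma adjusted p = 0.701), Mt1 at -0.22, Mt2 at -0.16 and Zbtb16 at -0.11, opposite in sign to Per1. Pdk4, the kinase that shuts off pyruvate dehydrogenase, had 111, 106 and 96.5 FPKM in WT chow and 316, 399 and 183 in WT high fat, so that WT chow was lowest as for Per1. Its KO mice, at 136 to 348 FPKM on chow and 186 to 261 on high fat diet, lay above all WT chow mice and overlapped those of WT high fat. For genotype on chow 6 of 12 had an unadjusted p under 0.05, beside 16.7% of all tested genes. All 6 were higher in KO and none passed adjustment (Angptl4 1.53, Pdk4 1.12, Mt2 1.09, Ddit4 1.09, Mt1 0.78 and Fkbp5 0.55). In KO chow 2, which was not rich in T and B cell markers, Mt1 (48.0 FPKM) and Ddit4 (8.21) lay within the WT chow range. Its Angptl4, Pdk4, Fkbp5 and Mt2 lay above all WT chow mice, Mt2 narrowly (31.8 against 30.9 FPKM in WT chow 2). The part of cell types in these differences was not tested. The list median was 0.43 beside -0.03 over all tested genes. In KO the diet median was -0.22, and Fkbp5, a widely used glucocorticoid readout, had -0.67 (limma adjusted p = 0.400). On high fat diet, at that threshold, Angptl4 (1.39) and Mt2 (1.00) were higher and Sgk1 (-0.50) and Klf15 (-0.39) lower in KO. The interaction was -1.52 for Pdk4 and -0.60 for Klf15, of the same sign as that of Per1.

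Immediate early genes, which cAMP and calcium signals induce together with Per1, varied widely from mouse to mouse within groups. Of 13 listed, 12 were tested and none called. Fos had 41.5, 5.51 and 5.78 FPKM in WT chow, 10.4, 79.9 and 23.0 in WT high fat, 22.9, 10.2 and 25.3 in KO chow, and 4.47, 60.5 and 24.1 in KO high fat. WT chow 1, with the lowest Per1 of the study, had the third highest Fos. The median over the 12 tested genes was 0.47 for diet in WT and 0.01 in KO. For genotype it was 0.36 on chow and -0.25 on high fat diet, and for the interaction -0.48. Over all tested genes these medians were from -0.03 to 0.03. Of these comparisons, only genotype on high fat diet had list genes with an unadjusted p under 0.05. The relation of this list to Per1 was not tested. At that threshold, on high fat diet Btg2 (-0.82) and Nr4a1 (-0.68) were lower in KO, beside 16.2% of all tested genes. Averaged over diets, Nr4a1 was at -0.47 and Egr2 at 0.33, beside 26.5%. Of 8 genes that follow body temperature, all were tested and none called. Cirbp, a cold-induced RNA-binding protein, had 31.9 to 33.1 FPKM in WT chow and 37.8 to 44.2 in WT high fat, with a diet difference of 0.30 in WT (limma adjusted p = 0.441) and no other gene of the list reached an unadjusted p under 0.05 in a pairwise comparison.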

How the data were processed

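Processed tables of 12 TruSeq RNA libraries were used, 1 table of FPKM per sample, as deposited by the authors. The submitters' processing notes name TopHat2 2.0.8b, Cuffdiff 2.1.1 and mm10, without settings. The tables used here hold no read counts, so the depth behind each FPKM value is unknown and no counting interval is given. Of 23179 rows, the highest-mean row was kept per symbol. The FPKM of 1 library, KO chow 3, sum to 10656400 because of 1 microRNA row (Mir324), and to 484182 without it, as against 499509 to 691621 in the others.

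Values were tested as log2(FPKM + 1) with limma 3.58.1 (trend) over all 11945 genes that reached 1 FPKM in 3 or more samples. Group means of the 4 title groups were fitted together (8 residual degrees of freedom, two-sided), with Benjamini-Hochberg adjustment over all tested genes, called at 0.05. For low genes, the added 1 makes a fold change look smaller than it was. The script was tested on simulated data. Correlations used 100000 permutations. Gene positions are from GENCODE M21 on GRCm38 and promoters from RefSeq.

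The 10 members, the gene lists (other clock genes, clock outputs, glucocorticoid-induced, immediate early and temperature-linked genes) and the tests were chosen with earlier results of these data known. From the wider clock list, 1 gene was left out and is not reported here. The text names all members, list genes called or with an unadjusted p under 0.05, at most 4 genes per list for their role, and the 5 genes most like and most opposite to Arntl and to Dbp. Alternatives were another pseudocount, no filter, other normalizations, a replicate term, only the groups compared, the genotype label and leaving out libraries.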

Additional observations from a re-analysis of the deposited data

Results flagged for a closer look

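For 2 clock genes, the test of whether the diet difference differed between the genotypes had an unadjusted p under 0.05, and both failed adjustment over all genes. Per1 had a diet difference in KO minus that in WT of -0.90 on the log2 scale (limma adjusted p = 0.593), with all 3 WT high fat mice above all 3 WT chow mice and overlapping groups in KO. Nr1d1 had 0.83 (limma adjusted p = 0.761), with all 3 KO high fat mice above all 3 KO chow mice and overlapping groups in WT, and kept an unadjusted p under 0.05 in 5 of 12 cases with 1 mouse left out. At the same unadjusted threshold 6.25% of all tested genes stood out, and 0 passed adjustment. Groups of 3 are too small for a test of single outlying mice.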

How the results depend on the processing

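In the 7 comparisons, the count of clock genes called stayed at 0 under all alternatives but 1. With the replicate number as a term (replicate block), 1 clock gene was called for diet in WT, Per1, with the same fold change and a limma adjusted p of 0.0359, against 0.116 to 0.269 when 1 mouse was left out and up to 0.849 over all its alternatives. Deviations of same-numbered mice correlated from -0.81 to 0.39 over the groups compared. They cover all tested genes and include the libraries rich in T and B cell markers, so they cannot decide whether the numbers pair the mice. With genotype taken from the conflicting genotype label in place of the title, 4 values turned sign: Cry2 for genotype on high fat diet to -0.25, Per1 for the interaction to 0.0374, and, averaged over diets, Cry2 to -0.0591 and Nr1d2 to 0.0607. No other sign change occurred among the 17 differences with an unadjusted p under 0.05. Leaving out 1 mouse gave 0.67 to 1.00 for Per1 (diet in WT), 0.59 to 0.90 for Dbp, 0.59 to 1.02 for Nr1d1 and 0.27 to 0.39 for Cry2 (diet in KO), each time with an unadjusted p under 0.05. Of the 53 other differences, 31 changed sign under some alternative and 0 were called. The exclusion of 3 libraries and robust variance moderation were chosen after seeing the data. Cry1 (genotype on chow) ran from -0.37 to -0.16, with an unadjusted p under 0.05 in 2 of 6 cases. With 1 of 12 mice left out, that threshold was kept in 5 cases for Nr1d1 (interaction) and 4 for Nr1d1 (diet averaged over genotypes), and, for genotype averaged over diets, in 5 for Cry1, 6 for Cry2 and 5 for Nr1d2. The depth behind the FPKM is unknown, so counting error of the low genes Arntl and Clock could not be set apart from the spread between mice.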
